A study of Mus musculus with 2 samples.

Results

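The genes described are 281 long intergenic noncoding RNAs (lincRNAs) detected in mouse embryonic hindbrain, of 43346 Ensembl genes in the tables. A gene was taken when GENCODE release M21 types it as a lincRNA and its level was at least 1 TPM in each of the libraries. TPM is the share of a transcript among all transcripts, corrected for length and scaled to a fixed sum. The better-known Malat1, Neat1, Miat, Rmst, Snhg11, Sox2ot, Pantr1, Gas5, H19, Meg3, Rian, Mirg and Peg13 were left out by name. Of 2777 lincRNAs in the tables, 288 reached that level, and 7 of these 288 were among the names left out. The other 2489 lincRNAs lay under the threshold. The 281 genes were thus chosen by their TPM in these same libraries, and their levels are given as a description and without a test. Just inside the threshold stood Gm26823 with 1.01 and 1.03 TPM in replicates 1 and 2, Gm28151 with 1.02 and 1.68 TPM, and Gm20939 with 1.05 and 1.25 TPM. Just outside stood Gm20554 with 0.98 and 1.55 TPM, Gm26527 with 0.98 and 1.65 TPM, and Gm16046 with 0.97 and 1.09 TPM.

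The samples form 1 group of 2 libraries, numbered as biological replicates 1 and 2. Both were made from 10 ng of hindbrain RNA longer than 200 nt, from healthy B6NCrl embryos of both sexes, pooled, at embryonic day 13.5. ERCC spike-ins were added, and no genotype or treatment is labelled. Both libraries share a donor label and differ in biosample label, so part of their spread may be technical. The Ensembl genes held 32314690 rounded counts in replicate 1 and 37772696 in replicate 2. Of 10 hindbrain markers, 9 were detected and En2 lay under the threshold with 0.58 and 0.48 TPM. Of 7 forebrain markers, 2 were detected, Lhx2 and Neurod6. The design therefore holds no contrast, and each value is compared across libraries, between genes or with the annotation.

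LincRNAs are transcripts without a long open reading frame whose genes are classed as lying apart from protein-coding genes. They are made by RNA polymerase II and are mostly capped, and many are spliced. Some act as RNA, as Xist does in silencing an X chromosome. Others carry a microRNA or a small nucleolar RNA that is cut out of the transcript, and many start beside the promoter of a coding gene and run the other way.

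The microRNAs carried by the detected lincRNAs are shown first, because they tie several of the most abundant transcripts to a known product. Annotated microRNA genes on the same strand lay wholly inside 21 of the 281 lincRNAs. These hosts held 34 microRNA genes, 19 inside exons, 13 inside introns and 2 across an exon edge. RefSeq (GRCm38.p6) gave mature sequences for 26 of the 34. The sequences below run 5′ to 3′, and the capitals mark the seed, bases 2 to 8. The same miR-9 sequences come from 3 genes, in Gm3764 (Mir9-1), C130071C03Rik (Mir9-2) and Mir9-3hg (Mir9-3). Of the let-7 microRNAs, 3 lie in 6720427I07Rik and share 1 seed. The remaining 6 lie in Mir17hg, where miR-17 and miR-20a share a seed, as do miR-19a and miR-19b.
miR-9-5p: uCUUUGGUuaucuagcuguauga
miR-9-3p: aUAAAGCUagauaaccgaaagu
let-7a-5p: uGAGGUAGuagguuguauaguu
let-7d-5p: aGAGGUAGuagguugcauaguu
let-7f-5p: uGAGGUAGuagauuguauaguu
miR-17-5p: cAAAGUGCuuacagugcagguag
miR-20a-5p: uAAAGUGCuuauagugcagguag
miR-18a-5p: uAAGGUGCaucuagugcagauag
miR-19a-3p: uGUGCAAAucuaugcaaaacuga
miR-19b-3p: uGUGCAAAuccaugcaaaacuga
miR-92a-3p: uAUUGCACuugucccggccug

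The promoters that some of the lincRNAs share with a coding neighbour are the other feature that sequence helps to show. The windows below are RefSeq promoters of GRCm38.p6 on the plus strand, from 250 bases before the lincRNA start to 50 bases after it. The capitals mark the bases between the lincRNA start and the start of the coding gene, which is transcribed from the minus strand. The window of Lhx1os is chr11:84525410-84525709, and that of 2010320M18Rik is chr8:70776612-70776911.
Lhx1os and Lhx1: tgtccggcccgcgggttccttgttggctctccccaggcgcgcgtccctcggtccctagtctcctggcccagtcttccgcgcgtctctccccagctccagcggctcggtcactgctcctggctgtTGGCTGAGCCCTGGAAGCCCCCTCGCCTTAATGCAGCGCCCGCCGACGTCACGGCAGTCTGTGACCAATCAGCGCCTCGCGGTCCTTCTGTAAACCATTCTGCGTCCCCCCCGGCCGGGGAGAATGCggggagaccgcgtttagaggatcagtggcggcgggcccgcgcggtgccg
2010320M18Rik and Pik3r2: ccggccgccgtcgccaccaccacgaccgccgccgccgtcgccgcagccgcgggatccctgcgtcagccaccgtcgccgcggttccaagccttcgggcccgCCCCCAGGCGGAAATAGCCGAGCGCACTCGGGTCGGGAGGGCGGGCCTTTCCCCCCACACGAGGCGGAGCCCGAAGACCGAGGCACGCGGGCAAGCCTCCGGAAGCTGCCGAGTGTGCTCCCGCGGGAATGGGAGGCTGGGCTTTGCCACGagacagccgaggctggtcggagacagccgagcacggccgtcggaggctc
The dinucleotide CG occurred 33 times in the Lhx1os window and 43 times in the 2010320M18Rik window, against a median of 7 over 32851 RefSeq promoter windows of the same length. At least as many were held by 8.56% of all windows for the first count and by 2.61% for the second. Windows matched to 10425 detected protein-coding genes had a median of 21. Among the 50 members that start beside a coding gene on the other strand, 29 were matched, with a median of 31. High counts are thus not particular to these windows, and the medians describe matched windows only. The CCAAT box (CCAAT, or ATTGG on the other strand) matched once between the starts of Lhx1os and Lhx1 and not in the 2010320M18Rik window, and 37.4% of all windows hold it. The GC box (GGGCGG, or CCGCCC) matched 2 times in the 2010320M18Rik window and not in the Lhx1os window, and 35.7% of all windows hold it. The letters TATAAA, searched on both strands, were in neither window and in 13.6% of all windows.

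Most of the 281 lincRNAs were present at low levels. Their median TPM was 3.27 in replicate 1 and 3.17 in replicate 2, beside 19.5 and 19.2 for the 13364 detected protein-coding genes. By mean TPM, 75 lay from 1 to 2, 100 from 2 to 5, 46 from 5 to 10, 51 from 10 to 100 and 9 at 100 or more. In bulk tissue, few cells with much of a transcript and many cells with little of it cannot be told apart. The 281 genes together held 0.984% and 1.02% of the TPM of all Ensembl genes. The median member had 103 counts in replicate 1 and 117 in replicate 2, but the lowest had 7 and 5 counts, and 19 and 15 members had fewer than 20. Values of those members rest on few reads.

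A large part of that sum came from a pair of loci on chromosome 17 that were listed as rRNA-like. Gm42418 had 4064 and 4345 TPM, and Gm26917, which lies 616 bp from it on the same strand, had 1658 and 1682 TPM. RefSeq gives Gm42418 as a synonym of Rn18s-rs5, a pseudogene related to 18S ribosomal RNA at chr17:39846354-39848202. Together they held 61.6% and 62.6% of the TPM of the 281 genes. Without them the lincRNAs held 0.378% and 0.384% of the Ensembl TPM, and the 10 highest of the rest held 44.3% and 46.2% of what remained.

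**Figure D1:**
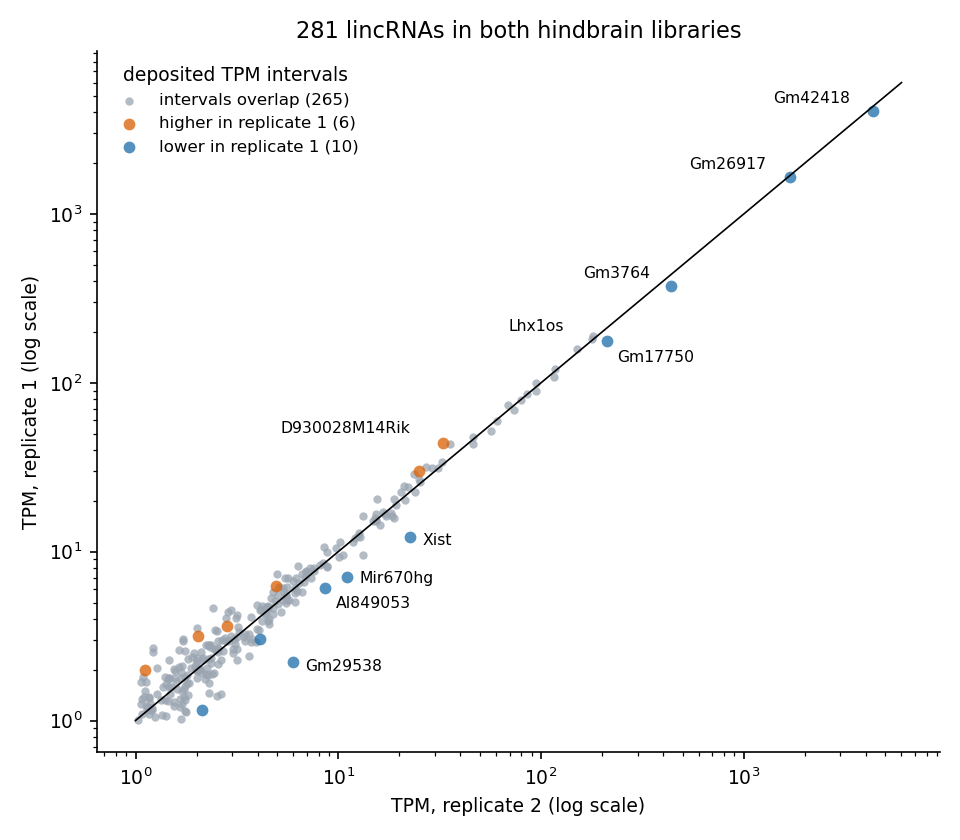
Each point is 1 of 281 lincRNAs, with its TPM in replicate 1 on the vertical axis and in replicate 2 on the horizontal axis, both on log scales; the line marks equal values. Colours show whether the deposited TPM intervals of the libraries overlapped (265 genes) or not (6 higher and 10 lower in replicate 1), and Xist at 12.3 and 22.5 TPM stands farther from the line than the other members of similar level.

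Hosts of neural microRNAs made up 3 of the 12 highest lincRNAs. miR-9 and miR-124 are known for their part in neurogenesis, in neural progenitors and in neurons. Gm3764, which carries Mir9-1 in an intron, had 375 and 437 TPM and was the highest member after the rRNA-like loci. It has 11 deposited transcripts at chr3:88206813-88229959. Its leading transcript, of 858 nt, carried 37.7% and 38.5% of its level. Mir9-3hg had 59.8 and 60.9 TPM, with Mir9-3 in an intron. C130071C03Rik had 52.1 and 56.9 TPM, with Mir9-2 in an exon. The 3 miR-9 hosts summed to 487 and 555 TPM, which was 13.6% and 15.4% of all lincRNA TPM without the rRNA-like loci, and most of it was Gm3764.

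The miR-124 hosts stood between Gm3764 and the other miR-9 hosts. Mir124-2hg had 99.55 and 94.4 TPM, with Mir124a-2 across the edge of an exon. Mir124a-1hg had 89.2 and 94.3 TPM, with Mir124a-1 in an exon. Mir124-2hg was the higher in both libraries, by little in replicate 2. Gm27032 reached only 3 bases into Mir124a-3, was therefore not counted as a host, and had 17.1 and 16.6 TPM; it was picked out after its values were seen.

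The hosts of the let-7 and miR-17 clusters were low by comparison. let-7 microRNAs are known to increase as cells differentiate, and the miR-17 cluster for promoting proliferation. 6720427I07Rik had 2.66 and 3.04 TPM and Mir17hg had 2.34 and 2.15 TPM, each with 1 deposited transcript. Their microRNA genes lie in exons. The 21 hosts had a median of 7.30 TPM by the mean of both libraries, beside 3.36 TPM for all 281 genes. Of the hosts in the middle of that range, 2900076A07Rik had 24.4 and 21.1 TPM, 5330434G04Rik, which holds Mir325 in an intron, had 17 and 18.2 TPM, and E130102H24Rik, which holds Mir101a in an exon, had 6.64 and 6.76 TPM. A430106G13Rik, with Mir181b-1 in an exon, had 2.69 and 2.55 TPM, and 4833445I07Rik, with Mir191 and Mir425 in exons, had 2.35 and 2.02 TPM. Gm20754 had 2.40 and 3.64 TPM and Gm4675 had 3.52 and 2.01 TPM. All of these hosts had overlapping intervals between the libraries. By the exact binomial test of the counts, described below, Gm4675 was nevertheless called higher in replicate 1 (adjusted p 0.0081). The lowest host was Smkr-ps at 1.43 and 1.27 TPM. Levels of the mature microRNAs were not analysed here, since the libraries hold RNA longer than 200 nt.

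**Figure D2:**
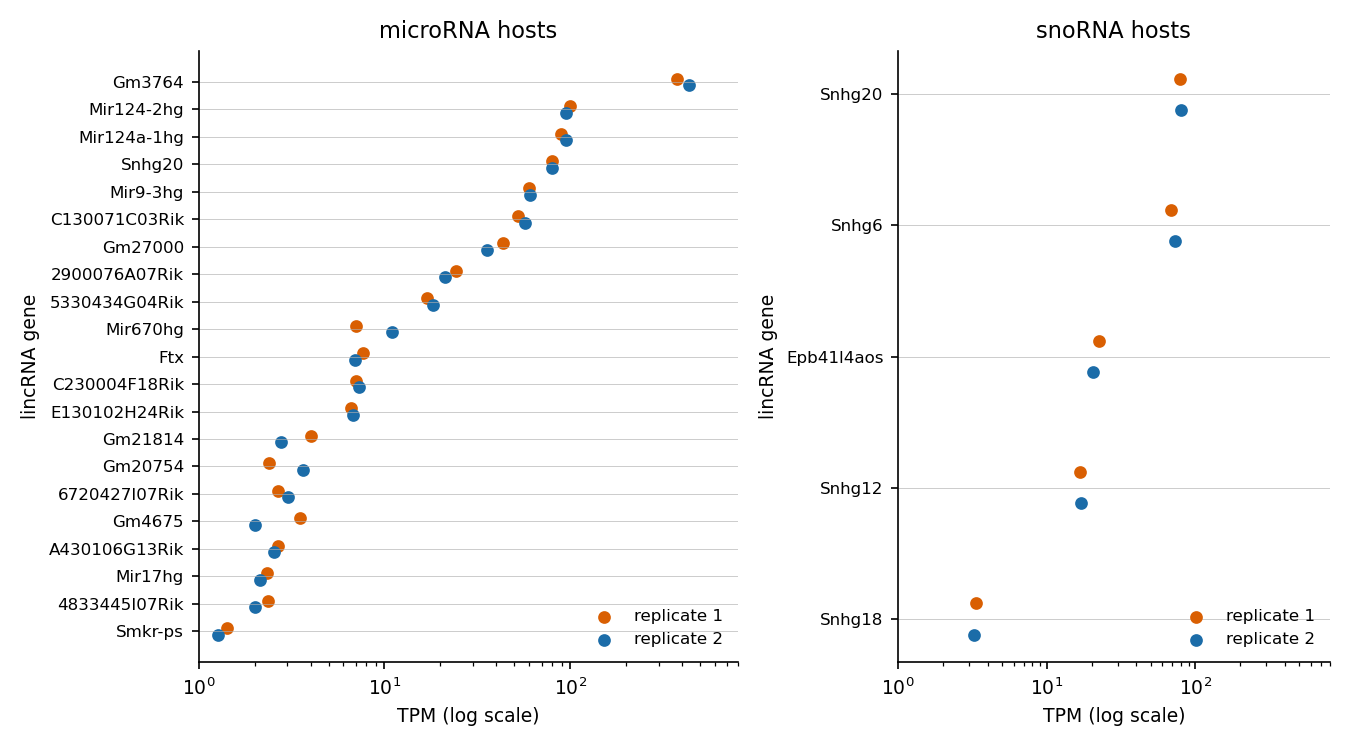
TPM on a log scale of the 21 detected lincRNAs that hold a microRNA gene and the 5 detected lincRNAs of the list of small nucleolar RNA hosts, with 1 point for each library. Gm3764 stands highest at 375 and 437 TPM, and Mir670hg at 7.06 and 11.0 TPM shows a wide gap between libraries.

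Small nucleolar RNAs (snoRNAs) guide the chemical modification of ribosomal and other RNAs, and many are cut from the introns of host genes. All 5 lincRNAs on the list of snoRNA hosts reached the threshold, beside 288 of 2777 lincRNAs over all. Snhg20 had 79.3 and 80.0 TPM, and Snhg6, host of Snord87, had 68.9 and 73.3 TPM. Epb41l4aos had 22.6 and 20.5 TPM, and Snhg12 had 16.6 and 16.96 TPM. Snhg18, host of Snord123, was the lowest at 3.36 and 3.23 TPM, and it also forms a divergent pair with Sema5a, a semaphorin. None of the 5 had disjoint intervals between the libraries, where the share over all 281 genes was 5.69%. Over all 281 genes, 11 annotated snoRNA genes lay inside 7 lincRNAs, 7 of them in exons and 4 in introns, with Snora16a in Snhg12 annotated 2 times at nearly the same bases. At Snhg20 and 2900076A07Rik the annotated snoRNA overlaps an annotated microRNA, Mir6516 and Mir1839, so the same bases carry both annotations.

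Of the genes at the X-inactivation centre, Xist, Ftx and Jpx are members. Xist coats and silences an X chromosome in female cells, and Jpx and Ftx are known as activators of Xist in mouse. Xist had 12.3 TPM in replicate 1 and 22.5 TPM in replicate 2, the largest difference in log2(TPM + 1) among the members that average at least 5 TPM and have disjoint intervals. The log2 ratio of replicate 1 over replicate 2 was -0.82. Ftx had 7.64 and 6.97 TPM and Jpx had 6.21 and 5.59 TPM, both slightly higher in replicate 1, with overlapping intervals. The 4 Y-linked genes Ddx3y, Eif2s3y, Kdm5d and Uty summed to 80.6 and 62.6 TPM, in the direction opposite to Xist. The labels describe the embryos of both libraries as pooled male and female, and the part of the sex balance of the pools in the difference was not tested. Tsix, the antisense gene of Xist and not a lincRNA by type, had 5.80 and 13.5 TPM, and, with the strand setting not given in the sources used here, reads of the pair cannot be told apart. The transcript of 17769 nt carried 97.3% and 98.9% of the Xist level.

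Among lincRNAs known by name, 7 of 10 reached the threshold, beside 288 of 2777 lincRNAs over all. None of the 7 had disjoint intervals, where the share over all 281 genes was 5.69%, so that none is little different from that share. 2900097C17Rik, the mouse Norad, which binds Pumilio proteins, had 85.7 and 85.6 TPM. 1700020I14Rik, the mouse Cyrano, which directs the decay of miR-7, had 47.5 and 46.1 TPM and a length of 5474 nt. Its gene lies 2010 bp from Oip5. Within the same network, Cdr1 is known for its antisense circular RNA that binds miR-7, and C230004F18Rik, which overlaps Cdr1 on the opposite strand, had 7.03 and 7.32 TPM. Dubr, known from muscle differentiation, had 12.1 and 12.8 TPM. Carmn and Bvht, both known from heart development, lie 2152 bp apart on opposite strands and had 4.63 and 4.75 TPM, and 4.33 and 4.41 TPM. Pvt1, which neighbours Myc, had 1.96 and 2.00 TPM over 10 deposited transcripts. Lncenc1, known from embryonic stem cells, had 2.01 and 1.54 TPM.

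The other highest members have few described roles. Gm17750 had 177 and 211 TPM, Gm10076 had 189 and 181 TPM, and Gm7292 had 121 and 117 TPM. 1810058I24Rik, known to encode a small mitochondrial peptide although typed as a lincRNA, had 108 and 116 TPM. Lhx1os, beside the homeobox gene Lhx1, had 181 and 178 TPM in 3 transcripts of near-equal share, the leading one with 38.8% and 38.9%. Gm2694 had 159 and 150.2 TPM and overlaps Cbln1, the gene of a synapse-organizing protein of cerebellar granule cells, on the opposite strand and without shared exon bases. Cbln1 itself had 26.3 and 23.7 TPM. Among these, Gm17750 had disjoint intervals and was lower in replicate 1, and the others had overlapping intervals.

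The lincRNAs were longer than the lincRNAs under the threshold and shorter than coding genes. The median deposited gene length was 1423 nt for the 281 genes, against 849.67 nt for the 2489 lincRNAs under the threshold and 2541 nt for detected protein-coding genes. The middle range, from the 25th to the 75th percentile, was 769 to 2300 nt for the members, 528.5 to 1555 nt under the threshold and 1659 to 3695 nt for coding genes. Xist, at 17446 nt, was the longest member, followed by Gm20342 at 9720 nt and Gm26786 at 6243 nt. Gm20342 is a single exon with 1.57 and 1.47 TPM. Gm26786, with 1.22 and 1.13 TPM, has all its exon bases opposite to protein-coding exons. Its nearest coding gene, Zfp90, covers only part of its span. The shortest were Gm14114 at 287 nt, Gm21814 at 291 nt and Gm10479 at 318 nt, with 1.80 and 1.09 TPM, 4.03 and 2.78 TPM, and 4.62 and 2.40 TPM. All 3 were the higher in replicate 1, with overlapping intervals. Because TPM divides by length, a short gene reaches the threshold with fewer reads.

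Most of the lincRNAs had 1 annotated transcript and few exons. A single deposited transcript was listed for 174 of 281, or 61.9%, against 73.6% of lincRNAs under the threshold and 27.0% of detected protein-coding genes. At least 5 transcripts were listed for 22, or 7.83%, against 0.603% under the threshold and 40.9% of coding genes. The members with most transcripts were 2810429I04Rik with 12, Gm3764 with 11 and Pvt1 with 10. By exons of the M21 transcript with most of them, 33 members (11.7%) had 1 exon, against 4.14% of lincRNAs under the threshold and 2.61% of coding genes. A further 115 members (40.9%) had 2 exons, beside 40.2% under the threshold. No test was run on these shares, since genes are not replicates.

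**Figure D3:**
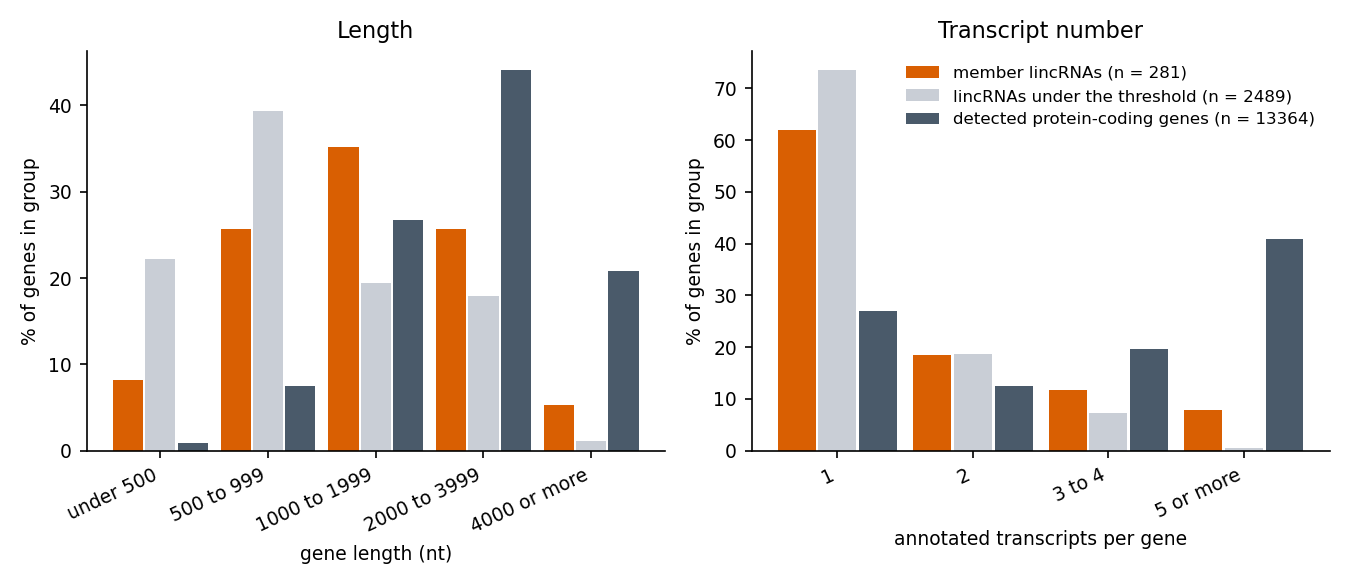
Share of genes by deposited length (left) and by number of deposited transcripts (right) for the 281 lincRNAs, the 2489 lincRNAs under the threshold and the 13364 detected protein-coding genes. The members peak at 1000 to 2000 nt, where 35.2% of them lie, and 61.9% have 1 transcript.

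Where a lincRNA had several transcripts, the leading one was mostly the same in both libraries. Of 107 members with more than 1 transcript, 97 had the same leading transcript in replicates 1 and 2. The leading transcript carried a median of 68.2% and 68.1% of the gene's TPM. It carried over 90% in both libraries in 21 members. In Mir124a-1hg the leading transcript of 4103 nt had 51.2% and 48.1%, and a shorter one of 757 nt had 38.0% and 43.1%. In C130071C03Rik a transcript of 3590 nt had 51.5% and 53.8%. Shares shifted more in some other members. A transcript of 2726 nt had 100% and 23.2% in Lncenc1, and one of 345 nt had 34.8% and 5.1% in Jpx. These percentages are the authors' estimates from shared reads and carry no error of their own.

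The lincRNAs lay close to protein-coding genes. The median gap between gene bodies was 672 bp for the members, against 48138 bp for the lincRNAs under the threshold. It was 1219 bp for the members left at a threshold of 2 TPM. Overlapping genes count as a gap of 0. Between start sites the medians were farther out, at 12985 bp for the members and 70789 bp under the threshold, with a smaller ratio between the groups. A protein-coding gene overlapped 92 members (32.7%), against 9.64% under the threshold. Another 56 members (19.9%) lay within 1 kb, against 6.23%, and 26 (9.25%) lay more than 100 kb away, against 32.8%. The farthest were A230006K03Rik, 987777 bp from Snrpn, 2410018L13Rik, 768628 bp from Gm10330, and Gm28526, 752916 bp from Arrdc3. Of these, 2410018L13Rik had 16.3 and 17.2 TPM and the others lay under 5 TPM.

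Overlap limits how far some of these levels can be assigned to the lincRNA. Exons of 70 members overlap a protein-coding exon, 66 on the opposite strand and 5 on the same strand, and in 19 members at least 50% of the exon bases do. Gm26735, with 74.2 and 68.5 TPM, has 98.8% of its exon bases opposite to Sox4, a transcription factor of newborn neurons, which had 138 and 153 TPM. Without a stated strand setting, reads of such pairs cannot be assigned with certainty. The deposited posterior SD of the count, which reflects reads shared between genes, was 0 in both libraries for 188 members and over 10% of the count in a library for 10. Among these 10, Gm27000 had 43.1 and 35.7 TPM, Gm26825 had 20.2 and 21.4 TPM and Gm28592, which lies opposite Phlda1, had 20.6 and 15.6 TPM.

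By orientation, 83 members (29.5%) lay head to head with their nearest coding gene, and 28 (9.96%) tail to tail. On the same strand, 39 lay upstream of the coding gene and 39 downstream of it. A further 78 (27.8%) overlapped it on the opposite strand and 14 (4.98%) on the same strand. Under the threshold, 24.8% lay head to head, 18.3% tail to tail and 8.04% overlapped on the opposite strand. Of the 83 head-to-head members, 47 lay within 1 kb of their neighbour.

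**Figure D4:**
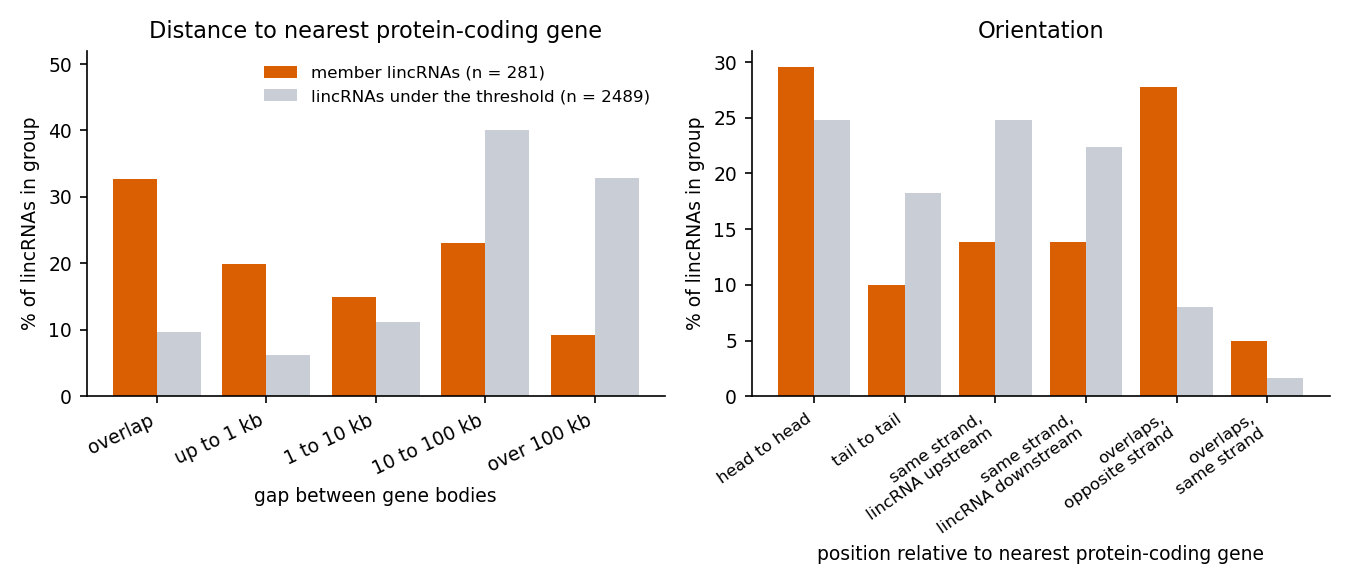
Share of lincRNAs by gap to the nearest protein-coding gene (left) and by orientation relative to it (right), for the 281 members and the 2489 lincRNAs under the threshold. Members are more frequent among overlaps (32.7% against 9.64%) and within 1 kb (19.9% against 6.23%).

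The nearest coding genes were mostly expressed in the same tissue. Of 278 members whose nearest gene was in the tables, 232 (83.5%) had a neighbour detected by the same threshold. The share was 58.7% for the lincRNAs under the threshold and 62.2% over all 21474 protein-coding genes. With overlapping genes left out, an alternative added after the data were seen, the shares were 154 of 188 members (81.9%) and 56.8% under the threshold. The median mean TPM of the nearest gene was 16.8 for the members and 4.49 under the threshold. Between the level of a member and that of its neighbour, Spearman's rho of mean TPM was -0.089 over 278 genes and -0.13 over the 188 without overlap, as a description across genes that share libraries. The nearest genes of several abundant members were silent or nearly so. Some of these lie far away. Esp38, nearest to both rRNA-like loci and 101732 bp from Gm42418, and Cypt12, 139440 bp from Mir124-2hg, were listed at 0 TPM. Rhbg, 12915 bp from Gm3764, had 0.17 and 0.27 TPM.

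Divergent pairs were counted where a protein-coding gene starts within 1000 bp upstream of the lincRNA and is transcribed away from it. There were 50 such members (17.8%), against 125 (5.02%) of the lincRNAs under the threshold. The starts lay from 4 to 972 bp apart, with a median of 169.5 bp, and 36 pairs had under 300 bp. The coding partner was detected in 49 of the 50 pairs, beside 83.5% of the nearest coding genes of all members. Its mean TPM was the higher of the pair in 43. The median was 3.57 TPM for the lincRNAs and 24.3 TPM for their partners. Over all members the medians were 3.27 and 3.17 TPM in replicates 1 and 2, beside 19.5 and 19.2 TPM for detected protein-coding genes. A higher coding gene is thus not shown to be particular to divergent pairs.

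The highest divergent member, Lhx1os, went the other way, with 181 and 178 TPM against 52.7 and 55.3 TPM for Lhx1, a homeobox factor of hindbrain interneurons and Purkinje cells. By GENCODE the starts lie 125 bp apart. AI480526 had 31.1 and 30.9 TPM, above Setd1b, a histone methyltransferase, with 7.56 and 7.48 TPM. 5930412G12Rik had 12.9 and 12.6 TPM, above Fzd10, a Wnt receptor, with 4.99 and 6.60 TPM. The remaining pairs of high level had the coding gene on top. 5031425E22Rik had 25.8 and 25.3 TPM and Kmt2e, a chromatin protein, 51.3 and 51.6 TPM. 2010320M18Rik had 22.7 and 23.9 TPM and Pik3r2, a regulatory subunit of phosphoinositide 3-kinase, 73.5 and 76.5 TPM. Gm5468 had 20.5 and 18.9 TPM and Basp1, a growth cone protein, 164 and 175 TPM. In each of these 6 pairs the order of lincRNA and coding gene was the same in both libraries.

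**Figure D5:**
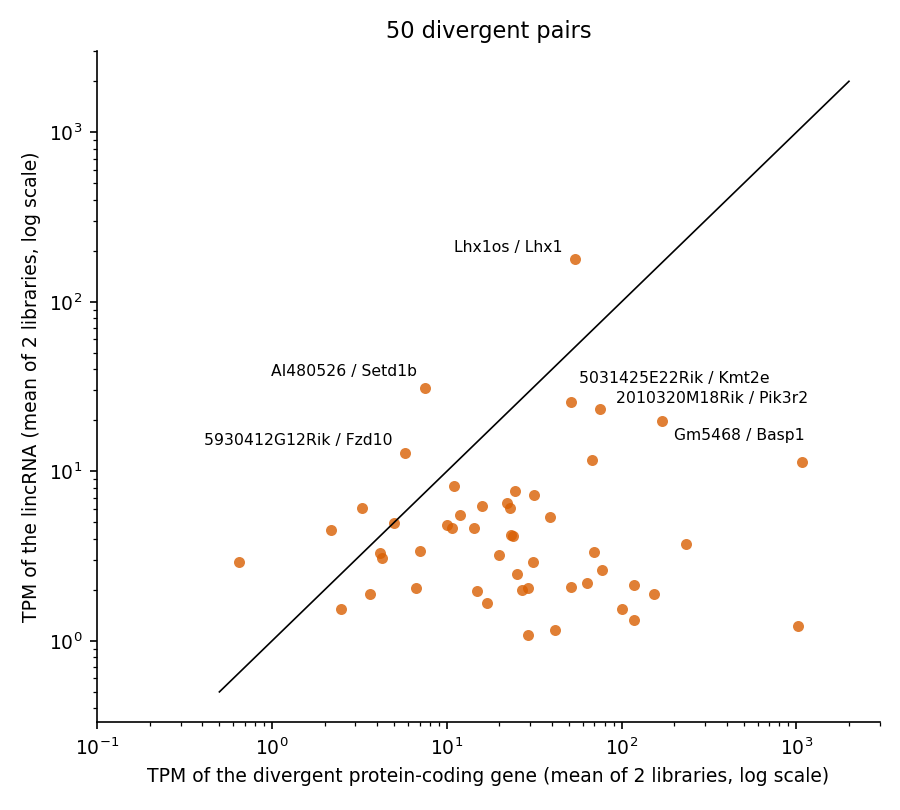
Mean TPM of the lincRNA (vertical) against mean TPM of its divergent protein-coding partner (horizontal) for 50 pairs, both on log scales; the line marks equal values. In 43 pairs the coding gene is the higher, and Lhx1os is the clearest exception at high level.

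A developmental transcription factor of the list was the nearest coding gene of 20 members, of 161 lincRNAs placed this way. Of all 2777 lincRNAs, 281 are members. The factor was detected in 19 of the 20, beside 83.5% of the nearest genes of all members. It was higher than the lincRNA in both libraries in 14 and lower in 6. Over all members the nearest gene had a median of 16.8 TPM, beside 3.36 TPM for the members. Beside the 2 already given for Lhx1 and Sox4, 1110015O18Rik had 43.4 and 46.4 TPM and lies 403615 bp from Zfhx4, which had 31.6 and 31.1 TPM. D930028M14Rik, which overlaps Pou2f2 on the opposite strand, had 43.9 and 33.0 TPM, beside 32.4 and 26.7 TPM for Pou2f2. Meis2, a homeobox cofactor, is the neighbour of 2700033N17Rik with 16.8 and 15.3 TPM and of G630016G05Rik with 4.37 and 2.85 TPM, while Meis2 had 143 and 113 TPM. A330102I10Rik, which lies 60686 bp from Sox4, had 15.7 and 15.2 TPM. D030068K23Rik had 5.44 and 5.52 TPM, beside 33.9 and 29.95 TPM for Zfhx3, and Gm26883 had 4.98 and 5.55 TPM, beside 35.6 and 34.96 TPM for Tshz2, which it overlaps. Gm12688 had 4.02 and 4.56 TPM, above Foxd3, a factor of the neural crest, with 1.78 and 1.75 TPM. 2610027F03Rik had 4.06 and 3.12 TPM and lies 13748 bp from En1, a homeobox factor of the midbrain-hindbrain region, which had 6.33 and 3.21 TPM. The lower members of the 20, outside the highest 12, had means of 2.77 TPM or less. The median of the 20 members was 3.95 TPM, beside 3.36 TPM for all 281.

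Several members lie beside each other. Within 100000 bp there were 22 pairs of members, made of 39 genes, and 7 of the pairs overlap. On chromosome 13, C130071C03Rik (chr13:83721381-83884194) overlaps Gm26803 on the opposite strand, which had 9.32 and 10.1 TPM. It is followed 7013 bp on by 2810049E08Rik with 1.16 and 1.19 TPM, and 96586 bp beyond that by Gm17750 with 177 and 211 TPM. On chromosome 3, AI849053 lies 2217 bp from Gm3764 on the opposite strand. AI849053 had 6.13 and 8.61 TPM, so that both genes of this locus were lower in replicate 1, each with disjoint intervals.

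Differences between the libraries were counted next. The deposited TPM intervals were disjoint for 16 of 281 (5.69%), against 9.25% of all 15342 detected Ensembl genes. Of the 16, 6 were higher in replicate 1, where the share over all genes was 4.81%, and 10 were lower, where it was 4.44%. The share depends on the level, and most of the lincRNAs are low. By mean TPM, intervals were disjoint in 2.67% of members from 1 to 2, against 2.58% of all detected genes of that level. From 2 to 5 TPM it was 4 of 100 members, against 7.29%, from 5 to 10 TPM it was 6.52% against 7.82%, and from 10 to 100 TPM it was 5.88% against 9.51%. At 100 TPM or more it was 4 of 9 members (44.4%) against 18.1%, a higher share on few genes. These 4 were Gm42418, Gm26917, Gm3764 and Gm17750, all lower in replicate 1. Gm42418 and Gm26917 are the rRNA-like loci, and the TPM of each lies outside its own interval in both libraries. A two-sided exact binomial test of the counts with Benjamini-Hochberg adjustment called 24 of 281 (8.54%), 12 in each direction, against 12.6% of 19687 Ensembl genes tested. For single directions those shares over all genes were 5.49% higher and 7.07% lower in replicate 1. A difference of 2-fold on the TPM + 1 scale was seen in 1 member, against 0.45% of all detected genes. It was Gm29538, with 2.21 and 5.95 TPM from 17 counts in replicate 1. These calls compare 2 libraries with counting error only.

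After Xist, the members with the largest ratios among those with disjoint intervals and a mean of 5 TPM or more were the following. Mir670hg, host of Mir670 and Mir129-2, had 7.06 and 11.0 TPM, a log2 ratio of -0.58. AI849053, given above, had a log2 ratio of -0.43. D930028M14Rik was higher in replicate 1, with a log2 ratio of 0.40, as was its overlapping neighbour Pou2f2. Gm26792 had 6.24 and 4.94 TPM, a log2 ratio of 0.29. Gm26848 had 30.1 and 25.01 TPM, a log2 ratio of 0.26. Gm26792 overlaps Cuedc2 and Gm26848 overlaps Dynlt1a on the opposite strand. The libraries also differed in cell type markers, of which 19 of 41 had disjoint intervals, 5 higher and 14 lower in replicate 1, and none was listed at 0. Over all detected genes the share was 9.25%, and it was 18.1% at 100 TPM or more, where several of the markers lie. The 3 choroid plexus markers summed to 555 and 1072 TPM and the 3 microglia markers to 68.1 and 85.0 TPM, with all of both lists disjoint. The 4 red blood cell markers summed to 6474 and 6931 TPM, with 3 disjoint, and the 3 mesenchyme markers to 525 and 402 TPM, with 2 disjoint. Among the regional markers Atoh1, a factor of the rhombic lip, had 6.35 and 16.4 TPM, Neurod6 had 50.9 and 65.0 TPM, and Hoxb2 had 31.4 and 38.3 TPM, each disjoint and lower in replicate 1. Further disjoint markers were Tubb3, Stmn2 and Nes, higher in replicate 1, and Fabp7, lower. Their part in the lincRNA differences was not tested. Across the 281 genes, log2(TPM + 1) had a Pearson r of 0.990 and a Spearman rho of 0.954 between the libraries, beside 0.995 and 0.994 over all detected genes, as a description over genes of very different level.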

How the data were processed

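Total RNA of 2 hindbrain libraries was measured, with a gene and a transcript table for each. The estimated counts (expected counts) and the TPM and FPKM values were computed by the authors and deposited, and TPM is scaled over every row, ERCC spike-ins among them. Bounds of credibility intervals were deposited with these values, with no stated level, and are treated as a score; the TPM of 4 members lies outside its own interval. For transcripts, the authors deposited the percent each contributes to its gene. Per the notes deposited by the authors, mm10 and GENCODE M4 were used. Aligner, counting program and strand setting: not given in the sources used here.

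Gene types, symbols and positions came from GENCODE M21 (GRCm38) by identifier without version, which matched 42462 of 43346 Ensembl genes. Length and transcript number are those of the deposited tables. The nearest protein-coding gene was taken by the gap between gene bodies on either strand. Promoter and microRNA sequences are from RefSeq (GRCm38.p6); promoter windows matched 128 of the 281 members by symbol, too few for a comparison of base composition over the set, which is therefore void. Ratios are of TPM with a pseudocount of 1. Rounded counts were scaled by TMM (edgeR 4.0.16, R 4.3.3) and tested with the exact binomial test of SciPy 1.17.1 where both libraries summed to 10 counts or more, at an adjusted p of 0.05, after a check on simulated data. With 1 group, a quasi-likelihood test was not possible. DESeq2 1.42.0 gave alternative size factors. Other steps used pandas 2.3.3 in Python 3.11.15.

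Named genes follow a rule: the 12 highest members, the 3 on each side of the threshold, the 6 largest ratios, the 3 longest, shortest, farthest and richest in transcripts, the 6 highest divergent pairs, every member of the lists of small RNA hosts, X-inactivation genes, rRNA-like loci and named lincRNAs, and at most the 12 highest members beside a transcription factor. The neighbouring members, the 10 with shared reads and the overlapping genes were chosen after their values were seen. One member beside a listed transcription factor and a hindbrain marker are not reported here. The members and lists were chosen with earlier results of these data known. Counts and intervals cover counting error only, and PCR reads lacking molecular identifiers are not independent.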

Additional observations from a re-analysis of the deposited data

How the results depend on the processing

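The number of members was 299 without replicate 1 and 303 without replicate 2, and it stayed within 1.5 times of 281 under a threshold of 0.5 or 2 TPM, FPKM, the posterior mean TPM and removal of overlapping members. The median TPM of 3.36, taken over gene means, ran from 3.17 to 3.27 with 1 library left out and was 3.73 without members that overlap a coding gene. The share of TPM of 1.00% ran from 0.984% to 1.02% with 1 library left out, was 1.12% as a share of counts and 0.381% without the rRNA-like loci. The median length of 1423 nt was also 1423 nt with either library left out and 2011 nt as union exon length in M21. Members with 1 transcript numbered 101 of 189 at a threshold of 2 TPM, a lower share than the 174 of 281. The median gap of 672 bp was 1219 bp at that threshold, and the median distance between start sites was 12985 bp. Neighbours detected numbered 154 without overlapping members, an alternative added after the data were seen that counts fewer genes. The cause of the other shifts was not tested. Of 45 alternatives, 34 stayed within the limits set, including all those of the divergent pairs, the disjoint intervals and the binomial calls, and the 12 on log2 ratios of named members kept their direction. No paired analysis was possible because the samples form 1 group. With 1 group of 2 libraries, spread between embryos cannot be estimated, and members with few counts are the least certain.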

Other observations

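Some listed lincRNAs lay under the threshold in this tissue. Hotair, transcribed from the Hoxc cluster and known from posterior tissues, was listed at 0 TPM in both libraries. Paupar, beside Pax6, had 0.16 and 0.08 TPM in replicates 1 and 2, and Lncpint had 0.21 and 0.22 TPM. Of 43 lincRNAs that hold a microRNA gene, 22 lay under the threshold, beside 2489 of all 2777 lincRNAs. Of these 22, 8 were listed at 0 in both libraries. Mir155hg, known from immune cells, had 0.12 and 0.25 TPM on 3 and 7 counts. Mir142hg, known from blood cells, had 0 and 0.24 TPM on 0 and 1 counts, although 3 microglia markers were detected and summed to 68.1 and 85.0 TPM.

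Several long noncoding RNAs of the list are not lincRNAs by their type in M21 and so fall outside the 281. Tug1, typed as antisense, had 151 and 147 TPM. Hotairm1, from the Hoxa cluster and typed as antisense, had 39.9 and 48.2 TPM, beside the 0 TPM of Hotair. Crnde had 33.6 and 28.0 TPM, and Firre, an X-linked transcript, had 15.2 and 16.5 TPM. Zfas1, a snoRNA host, had 47.4 and 46.5 TPM.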
